A study of Mus musculus with 8 samples.

Results

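Surface IL7R, the alpha chain of the interleukin-7 receptor, was compared with RNA in single mouse bone marrow progenitors that carried much CD135, the receptor for FLT3 ligand. The cells are labelled LSK, a marrow fraction that carries Sca1 and cKit, lacks markers of mature lineages and holds blood stem cells and early progenitors. Of 2987 wells with counts and a sort record, 2715 held at least 1000 gene counts and 500 detected genes, and 1356 of these had CD135 above the median of their plate. On each of 8 plates the 56 CD135-high cells in the top tercile of IL7R formed the IL7R-high arm and the 56 in the bottom tercile the IL7R-low arm. The arms held 448 cells each, 896 of the 2715 cells, with 460 cells between them. The cells were selected on IL7R and CD135 fluorescence, so the levels of these 2 proteins in the arms are a description and carry no test, while RNA and the other proteins were not used in the choice.

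The cells came from the bone marrow of Dach1 reporter mice (Dach1-GFP), aged 8 to 16 weeks per the labels, which name no treatment. Both arms share the altered allele, in which exon 12 of Dach1 gains a biotin tag ahead of its stop codon and GFP is read from the same transcript. The line was made in C57BL/6 embryonic stem cells from 1 targeted clone, and its neomycin cassette was removed with Flpe. Marrow was enriched on CD117 (cKit) beads before staining. CEL-seq2 copied the 3' ends of RNA from each index-sorted cell, and the plates fall by name into LC plates (replicates 1 to 4) and LCE plates (replicates 5 to 8). No label ties a plate to an animal. The p-values below therefore rest on how far plates differ from each other, which can include technical spread.

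IL7R pairs with the common gamma chain Il2rg to bind interleukin-7, and with Crlf2 to bind thymic stromal lymphopoietin, and signals through JAK1, JAK3 and STAT5. In the marrow, multipotent progenitors with high CD135 begin to transcribe lymphoid genes such as Dntt and Rag1 before most of them carry the receptor, and common lymphoid progenitors and B cell precursors carry it at their surface. LSK cells are usually described as IL7R-low or IL7R-negative, so these arms divide a range in which most cells stain weakly.

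The IL7R stain differed between plates far more than between arms of some plates. On replicates 1, 2 and 3 the median of the IL7R-high arm was 44.7, 47.8 and 49.4 linear sorter units, and that of the IL7R-low arm was -21.5, -22.7 and -14.9. On replicate 4 the arm medians were 330 and 89.5. On replicates 5 to 8 the IL7R-high medians were 568.4, 482, 556 and 542 and the IL7R-low medians 136, 99.8, 177 and 120. The high-arm medians of replicates 1 to 3 therefore lay below the low-arm medians of replicates 4 to 8. The highest single value was 148 to 213 on replicates 1 to 3, 888 on replicate 4, and 3313 to 7749 on the LCE plates, so a strongly stained tail was recorded on LCE plates. Values below 0, which subtraction of background or compensation can leave, were found in 62, 54, 58 and 6 CD135-high cells of replicates 1 to 4 and in 3, 5, 1 and 9 of replicates 5 to 8.

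The arm edges passed between cells of nearly equal stain. On replicate 1 the last cell inside the IL7R-low arm read -3.75 and the first outside it -2.06, and the first cell inside the IL7R-high arm read 26.6 against 25.9 just outside. On replicate 5 the same edges were 220.5 and 221.1, and 374 and 370. The CD135 gate also lay at different levels, with the first CD135 value inside at 1022 to 1324 units on replicates 1 to 3, 3402 on replicate 4 and 4760 to 6208 on replicates 5 to 8.

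Il7r RNA, which the choice of cells did not use, was higher in the IL7R-high arm. Its summed counts in the high and low arms were 17 and 2, 8 and 3, 13 and 4, and 0 and 0 on replicates 1 to 4. On replicates 5 to 8 they were 15 and 1, 14 and 1, 9 and 0, and 7 and 1. The high arm thus held more Il7r on 7 of 8 plates, and on replicate 4 the whole plate held 1 Il7r count. In CPM, an arm's counts scaled to a common total of 1e+06, Il7r was 19.4 ± 10.3 in the high arm, 7.95 ± 6.75 in the middle tercile and 2.47 ± 1.80 in the low arm (SD, n = 8 plates). The log2 ratio, with 1 CPM added to both arms, was 2.35 ± 1.41 (SD), and a two-sided exact sign-flip permutation test over plates gave p = 0.0156 (smallest possible 0.00781). It was 1.35 ± 1.06 on LC plates, higher on 3 of 4, and 3.36 ± 0.92 on LCE plates, higher on 4 of 4, where 4 plates cannot give an exact p below 0.125. With 83 and 12 counts in all, Il7r stayed below the count filter of the test across genes.

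Single cells with an Il7r count were less clearly set apart by the stain. CD135-high cells with at least 1 Il7r count had a higher median IL7R than those without on 5 of 8 plates (exact permutation p = 0.102, adjusted 0.102 over 2 such tests). On the LCE plates those cells had medians of 1169, 1100, 451 and 502 units against 282, 257, 308 and 263. On replicates 1 to 4 the medians were 7.40, 23.9, 11.3 and 182 against 11.6, 18.8, 13.3 and 206, so only replicate 2 had the higher stain in the cells with Il7r. B lineage cells, defined as wells with 3 or more counts over at least 2 of 8 B lineage genes, among them Cd79a, Vpreb3 and Ebf1, stained above the other cells on 8 of 8 plates when all kept cells were used (exact permutation p = 0.00781, adjusted 0.0156). Their medians were 27.2, 56.8, 22.2 and 212 on replicates 1 to 4 against 17.9, 15.4, 12.7 and 209, and 458, 507, 1755 and 435 on replicates 5 to 8 against 278, 254, 282 and 264. In linear units the gap was larger on LCE plates, where the stain scale is also larger than on replicates 1 to 3. On replicate 4 the 2 medians nearly met.

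**Figure D1:**
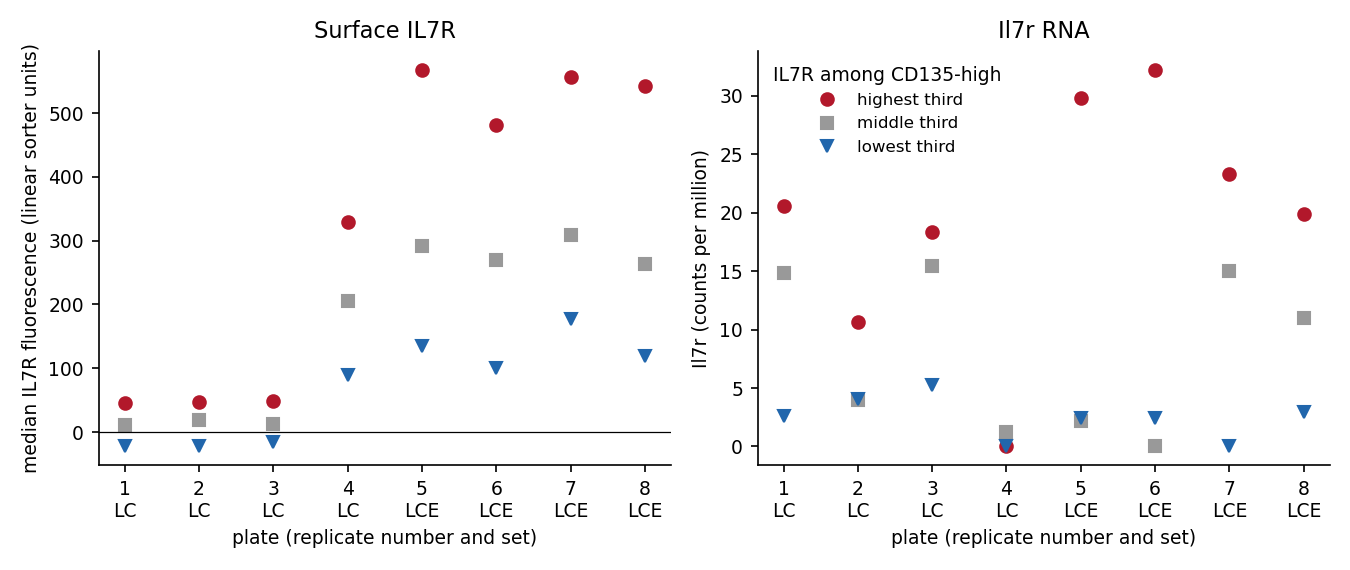
Median surface IL7R fluorescence in linear sorter units (left) and Il7r RNA in CPM (right) of the top, middle and bottom tercile of IL7R among CD135-high cells, for each of the 8 plates. Replicates 1 to 3 lie near 0 in stain, and Il7r RNA is highest in the top tercile on every plate but replicate 4, which held 1 count.

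Beyond IL7R, 12 sorter readings were compared between the arms, and none passed an adjusted p of 0.05 over the 12. CD135 is counted among the 12 in the adjustment, and no test of it is given. CD150, a SLAM family receptor of stem cells and of megakaryocyte and erythroid progenitors, had a higher median in the IL7R-high arm on 8 of 8 plates (mean difference 148 ± 136 units, SD, exact permutation p = 0.00781, adjusted 0.0938). Sca1 was lower on 7 of 8 plates (-998 ± 814 units, exact p = 0.0156, adjusted 0.0938). CD48, a SLAM family protein of more advanced progenitors recorded on LCE plates, was 4899, 5579, 5529 and 5320 units in the high arms against 3697, 5169, 3558 and 4843 in the low arms, higher on 4 of 4. RNA of the sorted proteins did not pass the test on all plates: Ly6a, which encodes Sca1, differed by -0.36 ± 0.15 (log2, SE, edgeR adjusted p = 0.644), Kit by -0.02 ± 0.08 and Cd48 by 0.08 ± 0.11.

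GFP and CD135 moved in opposite directions with IL7R on the 2 plate sets. Median GFP was 932, 1187, 1050 and 1381 units in the high arms of the LC plates against 591, 729, 615 and 874 in the low arms. On the LCE plates it was 279, 340, 339 and 225 against 353, 416, 395 and 404. Within the CD135 gate the IL7R-high arm therefore had the brighter Dach1 reporter on 4 of 4 LC plates and the dimmer on 4 of 4 LCE plates. CD135 was lower in the high arm on replicates 1 to 3 (-770, -1305 and -651 units), higher on replicate 4 (418), and higher on all LCE plates (4018, 2813, 2701 and 3338). An exact permutation test of LC against LCE differences gave p = 0.0286, the smallest that 4 against 4 plates allow, for GFP and CD150, which is 0.0667 after adjustment over 7 readings. For CD150 the high arm was higher on 4 of 4 plates of both sets. Its low-arm medians were 74.3 to 116 units on LC and 792 to 1040 units on LCE plates. A test in linear units therefore cannot tell a larger CD150 difference from a larger stain scale. CD135 was used to select the cells, so its values are a description. The labels record that the IL7R antibody was coupled to biotin and that the Dach1 allele holds a biotin tag; any part of either in the stain was not tested.

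**Figure D2:**
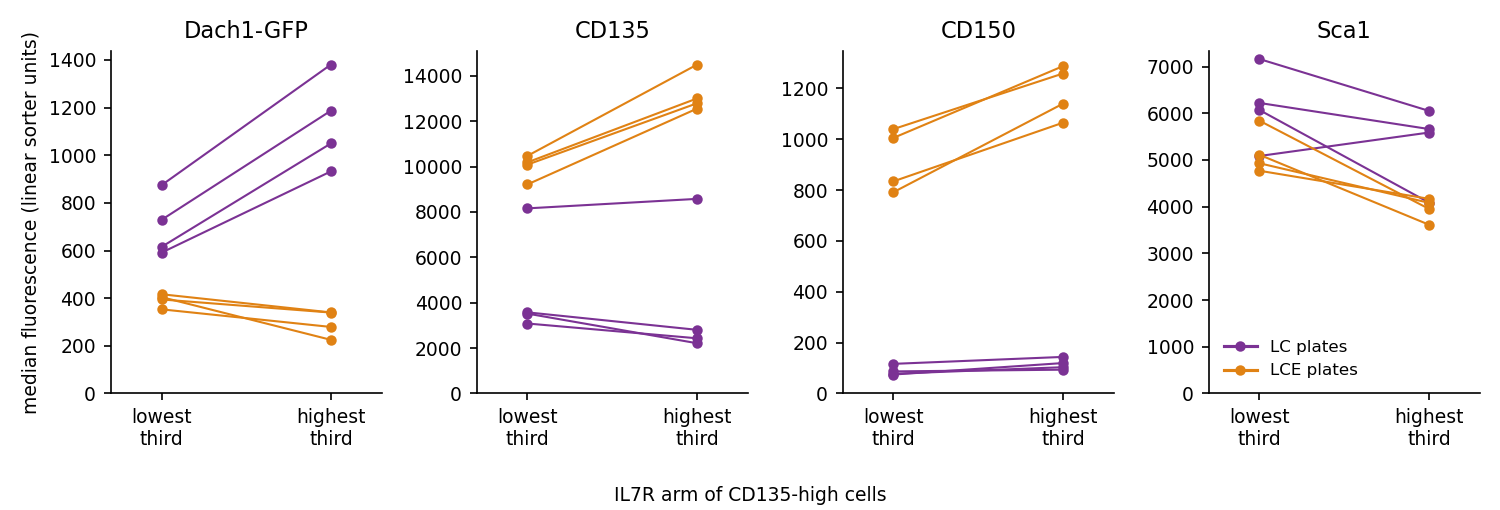
Median fluorescence in linear sorter units of Dach1-GFP, CD135, CD150 and Sca1 in the bottom and top IL7R tercile of CD135-high cells, with 1 line per plate. GFP rises from low to high IL7R on the 4 LC plates and falls on the 4 LCE plates, and CD135 rises on the LCE plates and on 1 LC plate.

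Cell content and depth moved with the arms. Cells of the IL7R-high arm had more counts on 7 of 8 plates (mean of plate medians 10398 against 9213, exact permutation p = 0.0234, adjusted 0.0234 over 3) and more genes on 8 of 8 (3452 against 3172.5, exact p = 0.00781, adjusted 0.0117). The mitochondrial share was 4.86% against 5.03%, lower on 8 of 8 plates (exact p = 0.00781, adjusted 0.0117). Of 448 cells per arm, 31 in the high arm and 10 in the low arm were B lineage cells, with more in the high arm on 7 of 8 plates (exact p = 0.0234). They numbered 11 and 6 on LC plates and 20 and 4 on LCE plates. After each cell was thinned to 3000 counts, 14 of 444 high cells and 1 of 445 low cells still met the definition. For single genes the differences below were also taken after thinning and after leaving B lineage cells out, with the calls lost that way given beside the genes. Both steps leave fewer counts, so a lost call does not measure the part of depth or of B lineage cells, which was not tested. In sums over cells, more cells of a type and more RNA per cell cannot be told apart.

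Across all 8 plates 8 of 7900 tested genes differed between the arms (0.101%, edgeR adjusted p under 0.05), 7 higher (0.0886%) and 1 lower (0.0127%) with high IL7R. The 7 were Ebf1, a transcription factor that commits cells to the B lineage, the mitosis genes Cenpa and Ube2c, and the H2A histone genes Hist1h2ag, Hist1h2ap, Hist1h2ah and H2afx. Mt-Rnr2, the mitochondrial large ribosomal RNA, was the gene that was lower, by -0.10 ± 0.02 (log2, SE). The count was 18, 25 or 29 genes without replicate 1, 2 or 3, and 2, 1, 2, 2 or 4 genes without replicate 4, 5, 6, 7 or 8, and 3 of 7724 genes (0.0388%) without B lineage cells. At an unadjusted p under 0.05 there were 521 of the 7900 genes, where a share near 0.05 passes with no difference. DESeq2 called 1 gene, Ly6d. The 4 lower genes of smallest p did not pass: Sox4 (-0.23 ± 0.05), Txnip (-0.36 ± 0.09), Wbp1l (-0.90 ± 0.23) and Cd74 (-0.72 ± 0.19).

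Ebf1 had the largest difference. Its level in the high arm was 16.95, 13.3, 22.6 and 2.09 CPM on the LC plates and 21.9, 62.2, 67.4 and 54.1 CPM on the LCE plates. In the low arm it was 3.97, 4.03, 3.93 and 0 CPM and 19.7, 2.43, 25.5 and 5.93 CPM. The high arm was above the low arm of its own plate on 8 of 8 plates, although the 2 groups of 8 overlapped. The log2 difference was 1.99 ± 0.34 (SE, edgeR adjusted p = 0.00272). Over all plates, too, Ebf1 reached the count filter mainly through the high arms, so that p is no separate support. Ebf1 belongs to the B lineage definition used for single cells, and without those cells its counts did not reach the filter. Its call was also lost without replicate 6. The calls of Hist1h2ap, Hist1h2ah and H2afx over all plates were lost without any 1 of replicates 4 to 8 and without B lineage cells, and that of mt-Rnr2 without any 1 of replicates 4 to 7 and after thinning.

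Cenpa, the histone H3 variant that marks centromeres, and Ube2c, the ubiquitin-conjugating enzyme of the anaphase-promoting complex, rose over all plates. Cenpa was 142, 127, 98.7 and 166 CPM in the high arms of LC plates and 101, 85.2, 88.1 and 76.8 on LCE plates. The low arms held 87.4, 99.4, 76.0 and 91.3 CPM and 39.3, 43.8, 41.5 and 44.4 CPM. The gain was present on 8 of 8 plates (0.72 ± 0.12, edgeR adjusted p = 0.00272) and Cenpa kept its call when any 1 plate was left out, but not after thinning to 3000 counts (0.71, adjusted p = 0.162). Ube2c was 137, 131, 104 and 171 CPM against 54.3, 114, 60.3 and 50.6 CPM on LC plates, and 111, 66.8, 93.3 and 65.5 CPM against 19.7, 58.4, 25.5 and 85.9 CPM on LCE plates. It was higher on 7 of 8 plates (0.94 ± 0.17, adjusted p = 0.00548), and its call was lost without replicate 4, without replicate 5 or after thinning. Of the list of 20 G2 and mitosis genes, 20 were tested and 2 rose, beside 0.0886% of all genes tested. The median log2 difference was 0.44, beside a median of -0.00 over all genes tested. When IL7R terciles were taken within bins of equal cKit, an alternative chosen after seeing the data, no gene was called (0 of 7856).

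The promoters below are printed for the receptor gene and for 1 lymphoid and 1 mitosis gene whose RNA moved with its surface stain. Each is the 250 bases before the gene's start in the RefSeq annotation of GRCm38.p6, read 5' to 3' on the gene's strand. Il7r lies at chr15:9529877-9530126 (minus strand), Rag1 at chr2:101649533-101649782 (minus strand) and Ube2c at chr2:164769679-164769928 (plus strand). Capitals mark matches on either strand to TGTGGT, the core bound by Runx factors, CAGNTG, a form of the E-box bound by E proteins, and CCAAT, the box bound by NF-Y.
Il7r: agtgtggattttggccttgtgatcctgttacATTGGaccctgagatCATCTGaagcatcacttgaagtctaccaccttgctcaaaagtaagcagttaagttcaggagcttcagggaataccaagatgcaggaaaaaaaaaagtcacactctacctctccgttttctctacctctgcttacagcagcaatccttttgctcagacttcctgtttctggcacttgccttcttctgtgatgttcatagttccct
Rag1: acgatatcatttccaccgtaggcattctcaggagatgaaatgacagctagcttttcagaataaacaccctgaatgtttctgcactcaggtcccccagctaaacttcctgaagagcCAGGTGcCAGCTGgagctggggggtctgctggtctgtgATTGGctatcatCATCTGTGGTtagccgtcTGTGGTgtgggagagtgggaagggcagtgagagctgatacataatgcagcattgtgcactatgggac
Ube2c: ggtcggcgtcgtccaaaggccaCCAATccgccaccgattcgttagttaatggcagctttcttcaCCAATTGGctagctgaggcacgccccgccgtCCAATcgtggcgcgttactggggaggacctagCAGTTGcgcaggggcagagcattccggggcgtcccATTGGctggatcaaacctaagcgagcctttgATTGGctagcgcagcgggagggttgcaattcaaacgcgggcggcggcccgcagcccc
The Rag1 window held 2 TGTGGT, 3 CAGNTG and 1 CCAAT matches, and 1 CAGNTG match shared bases with a TGTGGT match. The Ube2c window held 6 CCAAT matches, of which a pair on opposite strands overlap, and 1 CAGNTG match. The Il7r window held 1 CCAAT and 1 CAGNTG match and no TGTGGT. Of 32851 promoters of this length, 14% held TGTGGT, 44.8% CAGNTG and 33.8% CCAAT, and 0.84% held 4 or more CCAAT. A match describes the letters and says nothing of binding.

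The 2 plate sets differed in how many genes followed IL7R. On the LCE plates alone 65 of 6093 genes differed (1.07%), 57 higher (0.935%) and 8 lower (0.131%) in the IL7R-high arm, and 25, 37, 32 or 49 genes did so without replicate 5, 6, 7 or 8. On the LC plates alone edgeR called 0 of 9036 genes (0%), and DESeq2 called 0. Unadjusted, 429 of the 9036 had p under 0.05, no more than the share of 0.05 that passes with no difference. The sets differ by name and sequencing depth (median counts per cell of 11586 to 13398 on LC and 5625.5 to 7525 on LCE plates). The median share of spiked-in control RNA was 3.42% to 4.83% on LC and 0% on LCE plates. Stain scale differed as well. The IL7R-high median of replicate 4 (330 units) lay between those of replicates 1 to 3 and those of LCE plates. Its highest single value was 888 units, against 3313 to 7749 units on LCE plates. These differences between the sets cannot be told apart. Of the 8 genes called on all plates, 7 were among the 65, Ube2c being the exception, and all 7 had the same sign. Genes of the LCE fit that the rule for named genes did not pick were chosen after their values were seen.

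Some lymphoid genes rose with IL7R on the LCE plates. Of 21 tested genes of a list of 27 lymphoid priming genes, 4 rose, beside 0.935% of all genes tested there, none fell and the median log2 difference was 0.26, beside -0.01 over all genes tested. The 4 were Dntt, which adds untemplated bases to antigen receptor joints, Rag1, which cuts antigen receptor genes, the heavy chain constant gene Ighm, and Cmah, a sialic acid hydroxylase. Of the 17 B lineage genes, Rag1 and Ebf1 alone reached the count filter, mainly through the arm in which they are high, so their number supports nothing further. Rag1 is also among the 4 lymphoid calls, so that count, its comparison with 0.935% and the list's median depend partly on the filter and are no test.

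Dntt on the LCE plates was 827, 495, 725 and 629 CPM in the high arms and 342, 321, 297 and 382 CPM in the low arms. All 4 high arms lay above all 4 low arms. The log2 difference was 0.98 ± 0.09 (SE, edgeR adjusted p = 7.41e-11). On the LC plates Dntt was 178, 251, 183 and 134 CPM in the high arms and 201, 328, 285 and 194 CPM in the low arms, lower on 4 of 4 plates with overlap (-0.43 ± 0.10, adjusted p = 0.787, not passed). Without B lineage cells the LCE difference was 0.92 (adjusted p = 3.5e-09), with terciles matched on CD135 it was 0.87 (2.69e-09), and with cells thinned to 3000 counts 0.90 (6.44e-12). It was called in all 20 alternatives run within the LCE plates. With matching on CD135, 42 of 6041 genes were called (0.695%), 37 of them among the 65.

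Rag1 on the LCE plates was 31.8, 29.9, 64.8 and 34.2 CPM in the high arms against 0, 2.43, 15.9 and 8.89 CPM. The arms did not overlap (2.61 ± 0.46, edgeR adjusted p = 0.000406). Since Rag1 reached the count filter mainly through the high arms, these values are a description and no separate support. On the LC plates it was 3.63, 5.31, 21.2 and 0 CPM against 6.62, 1.34, 1.31 and 0 CPM, too few counts for the test. Cmah was 57.8 ± 9.8 CPM in the LCE high arms against 25.4 ± 12.0 CPM (SD, n = 4 plates), a log2 difference of 1.20 ± 0.28 (adjusted p = 0.0148). The Cmah call held in 7 of 18 alternatives and was lost without replicate 5, 6 or 7, without B lineage cells and with terciles matched on CD135. Ighm rose by 0.40 ± 0.09 on LCE plates (adjusted p = 0.0148), from 280, 516, 303 and 264 CPM to 400, 596, 355 and 464 CPM, higher on 4 of 4 with overlap. That Ighm call was lost without B lineage cells (0.33, adjusted p = 0.169), after thinning (0.35, adjusted p = 0.206), without replicate 5 or without replicate 8. Without B lineage cells Dntt alone of the lymphoid list was called, beside 0.606% of all genes tested then that rose. The list's median was 0.25 over the 19 genes tested.

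Members of the lymphoid list that did not pass on LCE plates had values of mixed size. Flt3, which encodes CD135, differed by 0.04 ± 0.09, Satb1, a chromatin organiser, by 0.15 ± 0.10 and Notch1 by 0.34 ± 0.16. Tcf3, the E protein gene E2A, differed by 0.64 ± 0.23 (edgeR adjusted p = 0.294) and Arpp21 by 0.90 ± 0.28 (0.129). Ly6d, a surface marker of B-biased lymphoid progenitors below the filter, was 17.9, 23.03, 85.5 and 48.4 CPM in the LCE high arms against 2.46, 0, 0 and 5.93 CPM, without overlap. On LC plates Ly6d was 4.84, 6.64, 19.7 and 2.09 CPM against 2.65, 1.34, 0 and 0 CPM, again higher on 4 of 4.

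Markers of committed B cell precursors moved with these genes. The summed level of the 17 B lineage genes was 131 to 467 CPM in the LCE high arms against 68.2 to 143 CPM, and 35.6 to 193 CPM in the LC high arms against 19.7 to 75.5 CPM, higher on 8 of 8 plates, and no member was at 0 in every sum. For 14 mature B and plasma cell genes the sum was 353 to 584.5 CPM in LCE high arms against 350 to 996 CPM, higher on 2 of 8 plates. The 25 T cell and innate lymphoid genes summed to 199 to 282 CPM against 236 to 277 CPM on LCE plates, with Cd3g, Il2ra and Ncr1 at 0 in every sum. Of the 65 LCE calls, 37 were made again without B lineage cells, with the same sign, and nothing else was called then (37 of 5607 genes, 0.66%, with 34 higher, 0.606%).

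Many H2A histone genes differed on the LCE plates. Of 17 tested genes of a list of 23 H2A genes, chosen after their values were seen, 13 rose, beside 0.935% of all genes tested there, and the median log2 difference was 1.01, beside -0.01 over all genes. H2A proteins form part of the histone core that packs newly copied DNA, and most of their genes are transcribed in S phase from clusters of near-identical copies. Those copies can share counts, so the genes are not independent measurements and the single values are uncertain. Hist1h2ag was 1165, 1405, 1207 and 1748 CPM in the LCE high arms against 519, 811, 376 and 747 CPM. No low arm reached a high arm (1.15 ± 0.07, edgeR adjusted p = 6.35e-16). On LC plates Hist1h2ag was 649, 766, 667 and 650 CPM against 645, 618, 842 and 624 CPM (0.00 ± 0.07). Over all plates its call was lost without any 1 of replicates 5 to 8 and without B lineage cells (0.47, adjusted p = 0.109).

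All 23 listed H2A genes summed to a mean of 12420 CPM in the LCE high arms and 7055 CPM in the low arms. A sum of 17 H2A genes, which shared counts affect less, was also given by plate. It is not the sum of the 17 genes tested above, and leaves out some well-counted members of the list. It was 8147, 8924, 8373 and 11641 CPM in the LCE high arms, 8264, 8271, 4227 and 7029 CPM in the middle tercile and 3829, 5391, 2914 and 5055 CPM in the low arms. The log2 ratios of high to low were 1.09, 0.73, 1.52 and 1.20. On the LC plates the log2 ratios were -0.04, 0.21, -0.44 and 0.15. H2afx, the variant that is phosphorylated at DNA breaks, rose by 1.05 ± 0.14 on LCE plates (adjusted p = 1.36e-06), from 76.2, 146, 73.3 and 133 CPM to 203, 263, 148 and 282 CPM, and lost that call after thinning (0.64, adjusted p = 0.163). On LC plates H2afx was also higher on 4 of 4, at 258, 292, 261 and 282 CPM against 219, 261, 240 and 219 CPM (0.22 ± 0.09, edgeR adjusted p = 0.978, not passed). With terciles matched on forward scatter, a measure of cell size, Hist1h2ag differed by 0.63 (adjusted p = 1.56e-07) and H2afx by 0.63 (0.0168). Hmgb2 (0.44, adjusted p = 0.066) and Cdc20 (1.41, adjusted p = 0.0659) then lost their calls, and 20 of the 65 LCE calls recurred among 21.

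**Figure D3:**
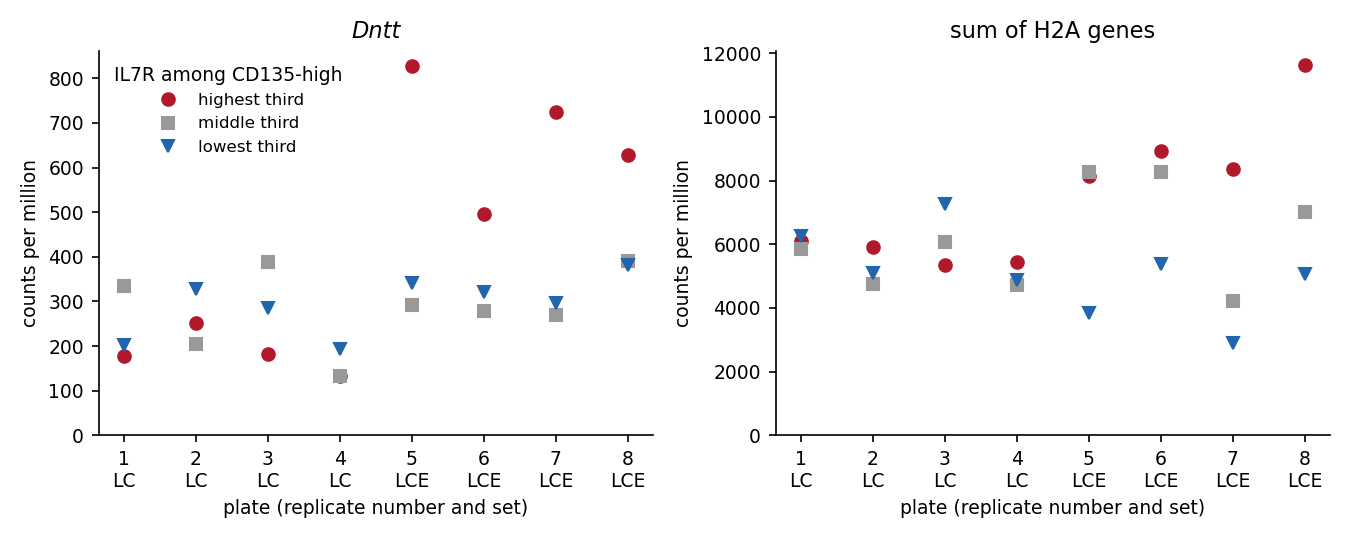
Dntt (left) and the sum of 17 H2A histone genes (right) in CPM in the top, middle and bottom IL7R tercile of CD135-high cells, for each plate. On the LCE plates the top tercile lies above the bottom one for both, at 495 to 827 against 297 to 382 CPM for Dntt; on LC plates Dntt is lower in the top tercile on 4 of 4, and the H2A sum has no common direction.

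Some genes of G2 and mitosis rose as well on the LCE plates. Of 16 tested of the 20 listed, 7 rose, beside 0.935% of all genes tested there, and none fell, with a median of 0.80 beside -0.01 over all genes. Sparse members such as Cdc20 reached the count filter mainly through the arm in which they are high. The count and the median depend partly on that and are no test of the list. With terciles matched on CD135, 4 of 16 rose, beside 0.695% of all genes tested then that were called in either direction. Cdc20, an activator of the anaphase-promoting complex, was 45.7, 55.3, 49.2 and 39.8 CPM against 7.38, 9.74, 15.9 and 29.6 CPM (1.65 ± 0.34, edgeR adjusted p = 0.00404). Hmgb2, a chromatin protein of dividing cells, was 361 ± 52.2 CPM against 208 ± 35.4 CPM (SD, n = 4 plates), a difference of 0.80 ± 0.11 (adjusted p = 3.35e-06). Top2a, the topoisomerase that untangles replicated DNA, rose by 0.66 ± 0.12, Cdk1 by 0.80 ± 0.19, Cks2 by 1.15 ± 0.27, Cenpa by 1.05 ± 0.21 and the cyclin gene Ccnb1 by 1.33 ± 0.34. The calls of Ccnb1 and Cdk1 were lost without any 1 of replicates 5 to 8, and Ccnb1 passed in 1 of 16 alternatives and Cdk1 in 6 of 19. Cdc20 lost its call without replicate 5, 6 or 7, Cks2 without replicate 5 or 7, and Top2a and Cenpa without replicate 5. Top2a and Cdk1 also lost it after thinning. Mki67 differed by 0.27 ± 0.14 and did not pass. Of 16 tested S phase genes none passed, 15 of 16 were above 0, and the median was 0.27. Rrm2, a subunit of ribonucleotide reductase, had 0.58 ± 0.21 (adjusted p = 0.271).

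On the LC plates the mitosis list had a median of 0.28 over 20 genes and no call, with Ube2c at 0.98 ± 0.19 (edgeR adjusted p = 0.156) and Cenpa at 0.58 ± 0.15. Ube2c was called on LC plates without replicate 2 (1.29, adjusted p = 0.00057) or without B lineage cells (1.05, adjusted p = 0.0365). Without B lineage cells, 4 of 16 tested genes of the G2 and mitosis list rose on LCE plates, beside 0.606% of all genes tested then. The list's median was 0.73.

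Genes that fell on the LCE plates included 2 of 13 tested stem cell genes, beside 0.131% of all genes tested there, and the list's median was -0.21 beside -0.01 over all genes. Hlf, a bZIP factor active in stem cells, was 225, 355, 264 and 219 CPM in the high arms against 401, 402, 392 and 356 CPM, with every high arm below every low arm (-0.56 ± 0.10, edgeR adjusted p = 0.000768). Ifitm1, a membrane protein induced by interferon, was 183, 212, 233 and 228 CPM against 305, 278, 348 and 439 CPM, again without overlap (-0.68 ± 0.11, adjusted p = 7.59e-05). On LC plates Hlf was 161, 269, 214 and 187 CPM against 227, 177, 189 and 319 CPM, and Ifitm1 524, 534, 547 and 495 CPM against 543, 586, 417 and 480 CPM, with no common direction. Nkx2-3 (-0.86 ± 0.29) and Mecom (0.01 ± 0.31) did not pass on LCE plates. After thinning to 3000 counts Hlf (-0.45, adjusted p = 0.076) and Ifitm1 (-0.48, adjusted p = 0.0966) missed the threshold, and Hlf also did so without replicate 5.

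The other genes that fell on LCE plates were Car2, a carbonic anhydrase of early erythroid and megakaryocytic cells (-0.34 ± 0.08), the MHC class II gene H2-Aa (-0.87 ± 0.21), Zfp36l2, an RNA-binding protein that destabilises messages (-0.39 ± 0.09), Scaf11 (-0.46 ± 0.12), the nuclear RNA Malat1 (-0.17 ± 0.04) and mt-Rnr2 (-0.14 ± 0.03). Each of these 6 lost its call without replicate 5 and without at least 1 other LCE plate. Among 15 tested granulocyte and monocyte genes Plac8 (0.38 ± 0.08) and the C-type lectin Clec12a (1.07 ± 0.27) rose, beside 0.935% of all genes tested there. The list's median was -0.16. Plac8 lost its call without replicate 5 or 6, and Clec12a without any 1 of replicates 5 to 8. No gene was called among 4 tested dendritic, 7 interferon response, 5 immediate early, 86 cytosolic ribosomal protein, 3 mast cell and 3 megakaryocyte genes on LCE plates, and no macrophage gene reached the filter. The 13 macrophage genes summed to 50.7 to 161 CPM in LCE high arms against 34.1 to 137 CPM, and to 60.6 to 186 CPM against 53.4 to 73.4 CPM on LC plates. Of the 65 calls, 15 carried predicted-gene, pseudogene or Rik symbols, and all 15 were higher; copies of other genes can share their counts.

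**Figure D4:**
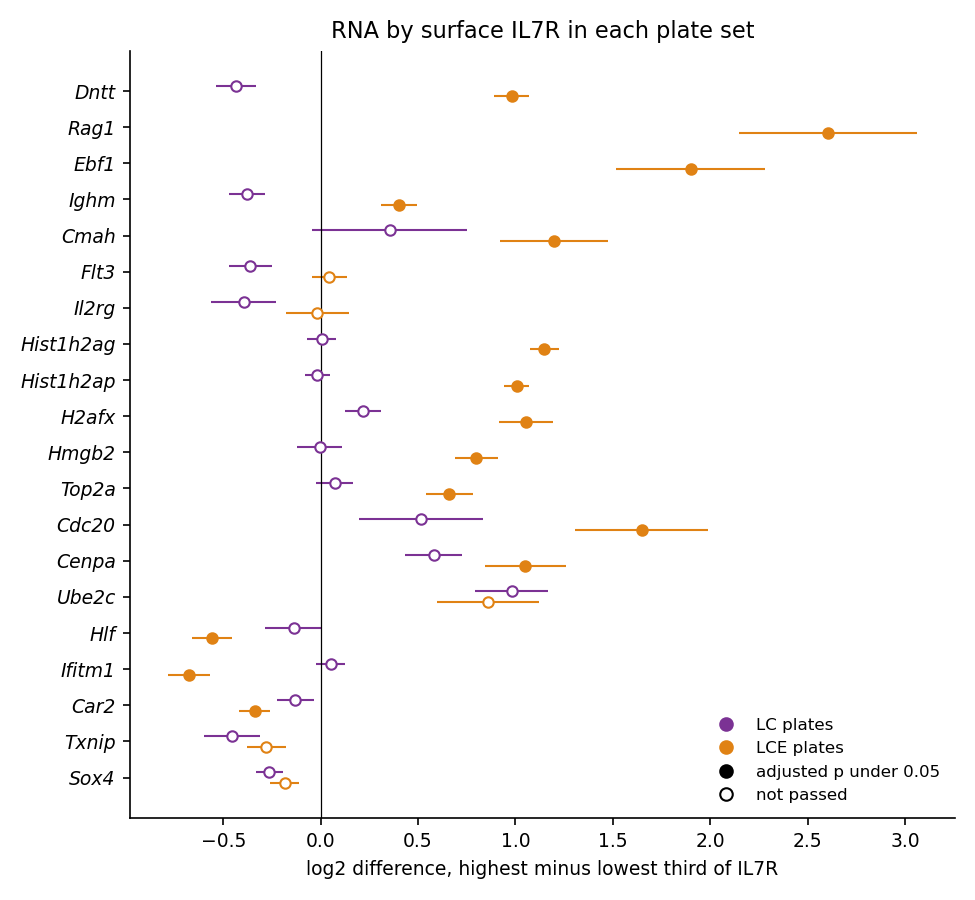
Log2 difference between the top and bottom IL7R tercile of CD135-high cells for 20 genes, fitted within the LC and within the LCE plates, with the standard error as a bar and filled points for an edgeR adjusted p under 0.05. Rag1 and Ebf1 have no LC point because of low counts; Dntt and Ighm lie above 0 on LCE plates and below 0 on LC plates, while H2afx, Cenpa and Ube2c lie above 0 on both.

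The difference between the plate sets was tested itself. In the interaction of IL7R arm and plate set 16 of 7900 genes passed (0.203%), 15 with the larger difference on LCE plates (0.19%) and 1 with the smaller (0.0127%). They were 9 Hist1h2a genes, the predicted gene Gm11336 with near-equal values, H2afx (0.84 ± 0.17), Hmgb2 (0.80 ± 0.17), Dntt (1.41 ± 0.14), Ighm (0.79 ± 0.13), Hpf1 (1.17 ± 0.27) and, in the other direction, Ifitm1 (-0.73 ± 0.13). Hpf1, a cofactor of PARP enzymes at DNA damage, was 81.1, 65.0, 91.7 and 80.6 CPM in LC high arms against 117, 99.4, 121 and 125 CPM, and 95.4, 71.4, 75.1 and 111 CPM against 32.0, 51.1, 67.0 and 83.0 CPM on LCE plates. It thus went down on 4 of 4 LC plates and up on 4 of 4 LCE plates. Ebf1 (-0.21 ± 0.59), Cenpa (0.47 ± 0.27), Ube2c (-0.11 ± 0.36) and Hlf (-0.42 ± 0.19) did not pass this test. The count of 16 was 15 without B lineage cells and 13 with terciles matched on CD135.

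Genes of the IL-7 receptor pathway themselves showed no call. Of 25 listed genes 17 were tested on all plates, none passed, and the median was -0.03 (-0.14 over 19 genes on LC and -0.02 over 16 on LCE plates). Among the receptor chains, Il2rg was lower on 7 of 8 plates, at 101 ± 27.9 CPM against 116 ± 29.1 CPM (-0.24 ± 0.12, edgeR adjusted p = 0.758), and Crlf2 was lower on 7 of 8, at 58.3 ± 16.1 CPM against 76.1 ± 25.4 CPM (-0.36 ± 0.14, adjusted p = 0.608). Of the kinases and STATs, Jak1 differed by 0.16 ± 0.09 and Stat5b by -0.38 ± 0.20. Of genes that act after the receptor, the survival gene Bcl2 differed by 0.37 ± 0.14 on LCE plates (adjusted p = 0.336), the kinase gene Pim1 by -0.22 ± 0.08 (0.309), the PI3-kinase subunit gene Pik3r1 by 0.42 ± 0.17 (0.374) and Mcl1 by -0.23 ± 0.18 (0.799).

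Across quintiles of IL7R, about 34 cells per plate in each, the LCE genes differed in shape. Dntt was flat over the lower 4 quintiles, at 315 ± 53.5, 342 ± 43.1, 307 ± 51.1 and 308 ± 27.5 CPM, and 928 ± 229 CPM in the top one (SD, n = 4 plates). Rag1 was 9.10, 2.45, 6.73 and 10.9 CPM and then 61.9 ± 29.2 CPM. Ighm likewise stood at 328 to 356 CPM in the lower 4 quintiles and at 520 ± 69.2 CPM in the top one. The H2A sum instead climbed at every step, from 3798 ± 850 through 5012, 6482 and 8686 to 9964 ± 1500 CPM. Il7r itself also rose at every step, from 2.10 through 4.55, 7.16 and 10.4 to 35.5 ± 11.9 CPM, with the largest step at the top. Ifitm1 declined at every step, from 358 ± 100 through 307, 274 and 248 to 189 ± 37.5 CPM, and Hlf was lowest in the top quintile (415 ± 46.5, 340, 352, 335 and 204 ± 81.3 CPM). These are mean levels with no test of shape, and median IL7R in the LCE quintiles was 77.8, 197, 284, 391 and 801 units.

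On the LC plates the quintile means of Dntt were 260, 295, 216, 214 and 191 CPM and those of the H2A sum stayed between 5248 and 5753 CPM. Flt3 RNA on LC plates was 243 ± 63.9 CPM in the bottom and 168 ± 17.9 CPM in the top quintile, and 368 ± 66.6 and 391 ± 45.2 CPM on LCE plates. Cenpa went from 75.5 ± 26.5 through 97.4, 113 and 126 to 141 ± 62.8 CPM on LC plates, and from 38.8 ± 14.7 to 84.6 ± 22.3 CPM on LCE plates. Ebf1 was at most 4.70 CPM in the lower 4 LC quintiles and 19.4 ± 13.9 CPM in the top one, with 13.1 to 18.5 CPM and 79.6 ± 39.5 CPM on LCE plates. Rag1 on LC plates rested on few cells, at 11.1 ± 16.8 CPM in the top quintile and at most 3.21 CPM elsewhere.

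**Figure D5:**
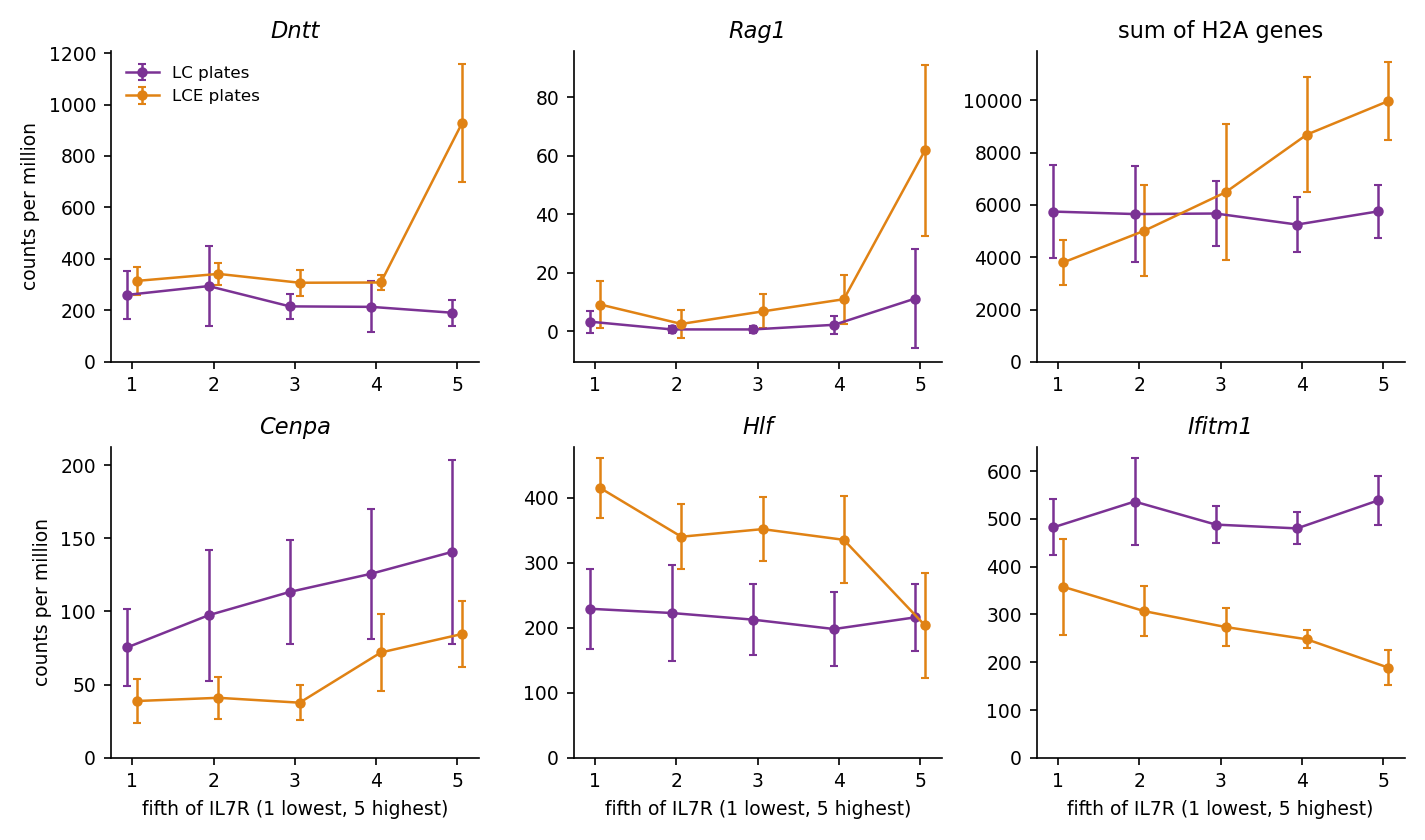
Mean level in CPM, with the SD over 4 plates, of Dntt, Rag1, the sum of 17 H2A genes, Cenpa, Hlf and Ifitm1 in 5 equal groups of CD135-high cells ordered by IL7R within each plate. On LCE plates Dntt and Rag1 stand high in the top group alone (928 and 61.9 CPM), while the H2A sum climbs from 3798 to 9964 CPM.

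To see whether the pattern was tied to CD135, the same terciles were made among cells below the CD135 median, 898 cells in 2 arms. There 32 of 7319 genes differed (0.437%), and all 32 were higher with high IL7R. They included Ebf1 (2.62), the surrogate light chain gene Vpreb3 (2.82), Cd79a (1.52), Dntt (0.55), Ighm (0.80), Hmgb2 (0.52) and Hist1h2ag (0.62 on the log2 scale). The test of the difference itself, the interaction of IL7R arm and CD135 class, called 0 of 8843 genes (0%) with edgeR. Unadjusted, 422 of the 8843 had p under 0.05, no more than the share of 0.05 that passes with no difference. Cd74, which chaperones MHC class II proteins, had -1.39 ± 0.32 in that test (edgeR adjusted p = 0.623) and Vpreb3 -1.76 ± 0.45 (0.794), the sign meaning a smaller difference in CD135-high cells. H2-Eb1, another class II gene, was called when replicate 4 was left out (-1.80, adjusted p = 0.0242).

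Within the LCE plates 7 of 6832 genes passed that interaction (0.102%). The granule protease genes Elane (-3.24), Ctsg (-1.47) and Prtn3 (-0.85) and H2-Eb1 (-1.71) had smaller or opposite differences in CD135-high cells, and the globin genes Hbb-bs (2.19), Hbb-bt (1.46) and Hba-a1 (2.83) larger ones. In the LCE CD135-high arms Elane was 0, 13.8, 62.2 and 14.2 CPM against 0, 119, 57.4 and 32.6 CPM, so its value leans on the low arm of replicate 6. Over all plates its interaction was -0.47 ± 0.30 and did not pass. The 7 calls were not checked with a plate left out. Near-identical globin copies can share counts. The lymphoid and H2A genes were not among the 7. CD135-low cells gave 8 calls among 9040 genes on LC plates (0.0885%) and 66 among 5745 on LCE plates (1.15%). Of the 65 genes called in LCE CD135-high cells and these 66, 29 were shared, 44.6% and 43.9% of the lists, all with the same sign. Among the shared genes, Hist1h2ag rose by 0.82 ± 0.08 in the LCE CD135-low cells (log2, SE). Hlf (-0.48 ± 0.10), Ifitm1 (-0.50 ± 0.13) and Car2 (-0.41 ± 0.08) fell there as well. Dntt rose by 0.53 ± 0.16 in those cells and did not pass (edgeR adjusted p = 0.135).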

How the data were processed

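Index-sorted wells of 8 CEL-seq2 plates were analysed. The authors deposited raw counts per gene and well, whole numbers up to 1532. The aligner is not given in the sources used here, nor is whether counts are reads or molecules. GRCh38 is the build in the submitters' processing notes, while gene identifiers are mouse Ensembl ones. Of 27318 identifiers 27249 had a symbol. The deposited sort tables gave linear fluorescence intensity, compensated values below 0 included, and deposited barcode sequences joined wells to them; 9 sort records had no barcode, and 383 well barcodes are shared by all plates by design. The forward scatter height was used because the area column of the LCE table could not be read as numbers. Plate totals over kept cells were 2093860 to 5192543 counts; doublets were not called.

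Counts were summed per plate and arm and tested with edgeR 4.0.16 (R 4.3.3, quasi-likelihood, filterByExpr, TMM, plate as a block, Benjamini-Hochberg adjustment); DESeq2 1.42.0 was an alternative. Single values were tested with two-sided exact permutation of signs over plates. On simulated data over 7625 genes of the comparison on all plates, 93.8% of genes changed by 1 on the log2 scale were recovered, with 8 false calls; over 6102 genes of the LCE comparison 58.8% were recovered, with 3 false calls. Arms of a plate are paired by design; their deviations correlated at 0.343 to 0.540 over all plates, 0.147 to 0.324 within LC and 0.107 to 0.235 within LCE plates, each best with its own plate.

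The rule named Il7r, Il2rg and the sorted proteins' own genes; up to 12 genes each way past 0.05 with at least 5 CPM and the same sign on at least 7 of 8 plates; of each list up to 4 genes of smallest p and any member past 0.05; if under 5 passed in a direction, up to 5 of smallest p; and up to 5 genes per interaction test. Other genes were chosen after their values were seen. The members and lists were chosen with earlier results of these data known. Fits of each plate set, matching on cKit or propidium iodide and the H2A list were chosen after seeing the data, apart from the LC and LCE fits as alternatives to the pooled one. Other alternatives were matching on other proteins or scatter, other IL7R splits, thinning, filters and leaving out plates or B lineage cells.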

Additional observations from a re-analysis of the deposited data

Results flagged for a closer look

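In 3 of 30 groups of plates tested for a value far from the rest, 1 plate stood apart, and chance flags about 1 in 20 groups. The arms differed by 350 units of propidium iodide on replicate 4 (median over plates 53.9), by 66.1 units of PIR-A on replicate 6 (median -94.7) and by -6528 units of side scatter area on replicate 8 (median 15520).

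The IL7R difference itself differed between LCE and LC plates for 16 genes by the edgeR interaction term. Among H2A genes and a predicted gene beside them, the LCE minus LC difference on the log2 scale was 1.23 for Hist1h2ac, 1.18 for Hist1h2an, 1.20 for Gm11336, 1.16 for Hist1h2ag, 1.03 for Hist1h2ap (1.035 before rounding), 1.10 for Hist1h2ae, 1.23 for Hist1h2ah, 1.20 for Hist1h2ao (1.195), 1.07 for Hist1h2aj and 1.16 for Hist1h2ak. It was 0.84 for H2afx and 0.80 for Hmgb2. For the lymphoid genes it was 1.41 for Dntt and 0.79 for Ighm, and it was 1.17 for Hpf1 and -0.73 for Ifitm1.

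Of the sorter readings, the arm difference was 3795 units larger on LCE than on LC plates for CD135, which is a description because CD135 selected the cells. The difference of differences was -532 units for GFP and 244 units for CD150 (each exact permutation p = 0.0286, adjusted 0.0667 over 7). For CD150 it cannot be told apart from the larger stain scale of the LCE plates.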

How the results depend on the processing

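Over all plates the 8 called genes became 0 in the highest CD135 tercile, 1 with DESeq2, 0 on LC plates, 65 on LCE plates, 21 on LCE plates matched on forward scatter, 20 between outer quintiles, 3 in a median split, 19 matched on Sca1, 45 without the low count filter, 15 thinned, 3 without B lineage cells, and, chosen after seeing the data, 0 matched on cKit and 3 matched on propidium iodide. Leaving out 1 plate gave 1 to 29. Without the replicate block 0 genes were called on all plates and 17 on LCE plates. The 65 LCE calls became 30 in the highest CD135 tercile, 18 with DESeq2, 42 matched on CD135, 38 on cKit, 21 on forward scatter, 28 thinned, 37 without B lineage cells and 25 to 49 with 1 plate left out. The 0 LC calls became 1 between outer quintiles (Tubb4b), 1 without B lineage cells and 0 to 1 with 1 plate left out. The 16 genes of LCE minus LC became 26 matched on GFP and 13 to 19 with 1 plate left out. The 0 genes of the CD135 interaction became 7 on LCE plates, 7 without the filter and 0 to 1 with 1 plate left out. Hist1h2ap turned to -0.0168 on LC plates, and Ighm to 0.40 on LCE plates and 0.53 there matched on forward scatter. Of the other values for single genes 2626 kept sign and side of the threshold, 281 lost the call and 108 gained it. The cause of these changes was not tested, except that fewer plates, cells or counts enter some of them. Il7r counts were few on every plate, and the stain lay near 0 on replicates 1 to 3. Any part of either in these changes was not tested.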
